A study of Mus musculus with 3 samples.

Results

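A group of 7 genes that mark repairing or fetal-like intestinal epithelium, or that are used to read the activity of the transcriptional co-activator YAP, was followed in mouse colon organoids exposed to the cytokine interferon-γ (IFN-γ). They were Ly6a, Ly6e, Anxa1, Clu, Ankrd1, Msln and Il33, 7 of the 32285 features in the count matrices, and were taken by gene symbol. The question was whether cells in which Ly6a and Ly6e were higher after IFN-γ also held the other 5 genes, or held the interferon response without them. Organoids were grown from colon crypts of wild-type (WT) mice in full medium (FM) with R-spondin 1, Wnt, EGF, Noggin, a GSK3 inhibitor and a TGF-β receptor inhibitor, which all 3 groups shared, and live cells were sorted by exclusion of a DNA dye before 10x Genomics 3′ single-cell sequencing. There was 1 library of untreated organoids, 1 of organoids given mouse IFN-γ for 24 h and 1 given it for 48 h, and the labels give all 3 as colon epithelial cells. The cultures held no immune or stromal cells by design, so they model the epithelium alone, and how many mice or cultures stood behind a library was not given in the sources used here. With 1 library per condition no difference between conditions could be tested. All intervals below are 95% intervals for counting error only and do not cover variation between cultures.

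Ly6a (also known as Sca-1) and Ly6e belong to the Ly6 family of small surface proteins held by a glycosylphosphatidylinositol anchor, and both are known as interferon-stimulated genes. Ly6a also marks crypt cells that return to a fetal-like state after injury, a state associated with YAP, which the Hippo kinases restrain and which binds DNA through the TEAD transcription factors. Anxa1 encodes annexin A1, a phospholipid-binding protein of tissue repair. Clu encodes the secreted chaperone clusterin, a marker of revival stem cells in damaged intestine. Ankrd1 is a classical YAP target, Msln encodes the surface glycoprotein mesothelin, and Il33 encodes an alarmin of the interleukin-1 family that is released from damaged cells.

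For 3 of the 7 genes the bases before the transcription start were read from RefSeq (GRCm38.p6). They are shown because no other such bases were available for the 7 genes, and each of these 3 holds a short word there. No such bases were available for Ly6a, Ly6e, Clu and Msln, so whether these genes hold it is not known. The word is the TEAD-binding core GGAATG, read on both strands, in a window from 250 bases before to 50 bases after the start, and only the bases before the start are printed, 5′ to 3′ on the strand of the gene, with each match in capitals. The Anxa1 window is chr19:20390672-20390921 (minus strand), the 2 Il33 windows are chr19:29924863-29925112 and chr19:29945540-29945789 (plus strand), and the Ankrd1 window is chr19:36119845-36120094 (minus strand). All but the upstream Il33 window lie inside the GENCODE gene bounds given below. The RefSeq starts used for them thus lie downstream of the GENCODE 5′ ends.
Anxa1: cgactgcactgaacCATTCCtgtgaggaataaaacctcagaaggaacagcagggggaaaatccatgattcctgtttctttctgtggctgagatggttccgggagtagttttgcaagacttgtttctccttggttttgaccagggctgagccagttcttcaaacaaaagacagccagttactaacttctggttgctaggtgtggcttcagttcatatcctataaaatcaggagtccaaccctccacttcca
Il33, upstream start: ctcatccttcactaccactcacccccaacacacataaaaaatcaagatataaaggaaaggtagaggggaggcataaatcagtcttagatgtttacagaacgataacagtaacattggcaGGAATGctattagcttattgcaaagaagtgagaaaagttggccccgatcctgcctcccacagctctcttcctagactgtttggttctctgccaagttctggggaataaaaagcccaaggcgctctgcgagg
Il33, downstream start: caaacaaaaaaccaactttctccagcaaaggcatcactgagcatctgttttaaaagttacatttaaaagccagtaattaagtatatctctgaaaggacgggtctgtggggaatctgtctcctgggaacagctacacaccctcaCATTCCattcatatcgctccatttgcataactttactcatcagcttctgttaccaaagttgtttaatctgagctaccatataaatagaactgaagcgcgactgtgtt
Ankrd1: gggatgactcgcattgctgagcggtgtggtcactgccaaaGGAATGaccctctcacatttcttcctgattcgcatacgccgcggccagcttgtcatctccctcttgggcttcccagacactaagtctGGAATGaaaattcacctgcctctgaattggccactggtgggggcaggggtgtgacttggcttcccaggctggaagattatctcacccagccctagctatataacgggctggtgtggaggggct

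The word began 236 bases before the start in Anxa1, 131 and 107 bases before the 2 starts of Il33, and at 210 and 123 bases in Ankrd1. All 4 windows of these 3 genes held it, against 14.7% of the 32851 windows of all genes. It was found in 43.8% of the 16 windows of a list of YAP targets and in 5% of the 20 windows of a list of fetal-like and repair genes. None of the 4 windows held the interferon-stimulated response word GAAANNGAAA (3.44% of all windows, 37.5% of the 24 windows of IFN-γ response genes), read on both strands. The GAS word TTCNNNGAA was in none of the 4 windows either (8.3% of all windows, 25% of the 24 windows of IFN-γ response genes). These are matches of letters and not measured binding, and a link to the levels of the genes was not tested.

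After removal of barcodes with fewer than 5000 unique molecular identifiers (UMIs), fewer than 400 genes or more than 15% mitochondrial UMIs, the untreated, 24 h and 48 h libraries kept 1058, 917 and 2934 cells. The median depth was 33550, 68784 and 10772 UMIs per cell, and 1 to 4 cell barcodes were shared by any 2 libraries. All UMIs of a gene in a library were added up and expressed per 1000000 UMIs of that library (counts per 1000000, CPM), so a lower value can come from fewer cells of one kind or from less RNA per cell, and these cannot be told apart in the sums. The epithelial label held in all 3 libraries. Ptprc (immune), Col1a1 (fibroblast), Kdr (endothelial) and Upk3b (mesothelial) had 0 UMIs in every library, but most other markers of these lists had some. At 0 in all libraries were 2 of 7 immune, 3 of 7 fibroblast, 1 of 5 endothelial and 2 of 5 mesothelial markers. The summed level of the marker list was 0.816 to 2.27 CPM for immune and 0.0423 to 0.663 for fibroblast cells. It was 1.28 to 3.23 for endothelial and 0.212 to 2.41 for mesothelial cells. Goblet markers summed to 2997, 999 and 696 CPM, and colonocyte markers to 3046, 1274 and 1177 CPM, in untreated, 24 h and 48 h cells. At both times 9 of 9 goblet and 9 of 12 colonocyte markers were at least 2-fold lower. Of the 12689 features with a mean of at least 1 CPM, 16.1% were lower by as much at 24 h and 9.5% at 48 h. Stem markers summed to 1762, 919.9 and 1453 CPM, proliferating markers to 3019, 3361 and 2730 CPM, enteroendocrine markers to 189, 267 and 77.4 CPM and tuft markers to 2.23, 5.67 and 5.59 CPM.

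Ly6a was detected at 905 CPM without IFN-γ (45070 UMIs, interval 897 to 913), at 3458 CPM after 24 h (3445 to 3472) and at 3819 CPM after 48 h (3801 to 3836). Both treated libraries therefore lay above the untreated one, by 3.82-fold at 24 h and 4.22-fold at 48 h. On the log2 scale the ratio was 1.93 (1.92 to 1.95) and 2.08 (2.06 to 2.09), and 1.54% and 1.77% of the 12689 features with a mean of at least 1 CPM had a larger ratio. Ly6e had 274 CPM without IFN-γ (269 to 278), 513 CPM after 24 h (508 to 519) and 706 CPM after 48 h (699 to 714). The log2 ratio of Ly6e was 0.91 (0.88 to 0.94) at 24 h and 1.37 (1.34 to 1.40) at 48 h. From 24 h to 48 h the log2 ratio was 0.46 for Ly6e and 0.14 for Ly6a, but with edgeR TMM factors in place of library totals it was 0.20 for Ly6e and −0.12 for Ly6a, so no direction between the treated libraries is given for Ly6a.

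**Figure D1:**
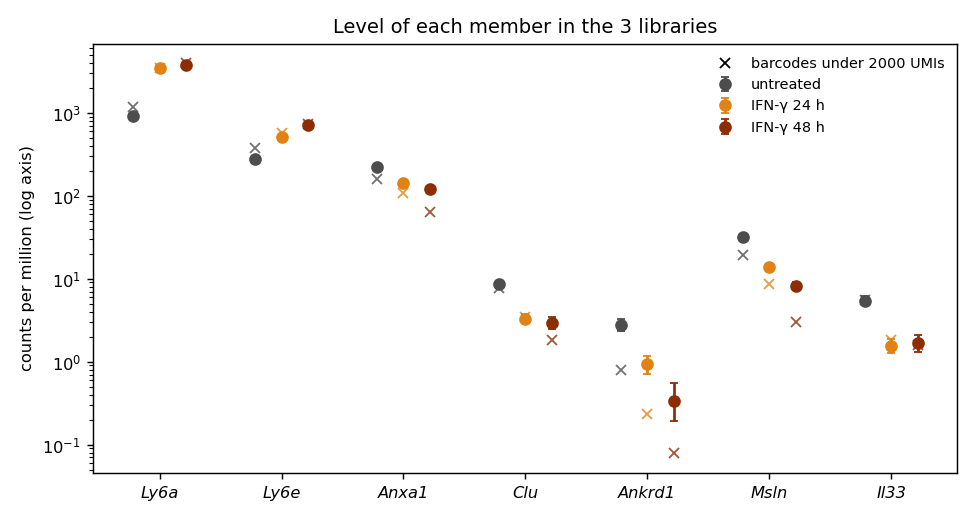
CPM (log axis) of the 7 genes in cells of the untreated, IFN-γ 24 h and IFN-γ 48 h libraries (filled points, bars are 95% counting intervals) and in barcodes with fewer than 2000 UMIs of the same libraries (crosses). Ly6a and Ly6e lie higher in both treated libraries, and the other 5 genes lie lower, in cells and in these barcodes alike.

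Both genes are part of a Ly6 cluster on chromosome 15 (GRCm38). Ly6e lies at chr15:74955051-74959905 on the plus strand and Ly6a at chr15:74994877-74998031 on the minus strand, 34.97 kb apart. Of 16 other genes of the family, 7 had a mean of at least 1 CPM. Ly6c1, which encodes a Ly6C surface antigen and starts 46.0 kb from the end of Ly6a, was the family member most like Ly6a, with 165, 1081 and 1246 CPM and log2 ratios of 2.71 and 2.92. Ly6c2 followed the same direction at a low level, with 5, 68 and 95 UMIs. Ly6g, on the far side of these genes, had 293, 184 and 173 CPM, and Ly6m had 3.19, 1.17 and 0.614 CPM, so both were lower in the treated libraries. Ly6d, at 7.95, 6.68 and 2.67 CPM, was past a 2-fold difference only at 48 h. In all, 2 of the 7 were at least 2-fold higher and 1 at least 2-fold lower at 24 h, and 2 and 2 at 48 h. Over all features 2.86% were higher and 16.1% lower at 24 h, and 3.89% and 9.5% at 48 h, so 1 of 7 lower at 24 h is near the share of all features. The paralogs Ly6a, Ly6c1, Ly6c2 and Ly6i are alike in sequence, and how their shared reads were assigned was not given in the sources used here, so the division of counts among them is uncertain.

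The other 5 genes were all lower in both treated libraries. Most features were lower too, since 3570 of 12689 lay above the untreated level at 24 h and 5039 at 48 h. The share of features with a lower ratio, at 24 h and 48 h, was 31.5% and 11.4% for Anxa1 and 12.4% and 2.84% for Msln. For Clu it was 9.41% and 4.37%, for Ankrd1 6.98% and 0.954%, and for Il33 5.06% and 3.59%. Anxa1 (chr19:20373428-20390944) had 220 CPM without IFN-γ (216 to 224), 143 CPM after 24 h (141 to 146) and 119 CPM after 48 h (116 to 122). Its log2 ratio was −0.62 (−0.66 to −0.58) and −0.88 (−0.93 to −0.84), short of a 2-fold difference at both times. Msln (chr17:25748613-25754378) had 31.5 CPM (29.9 to 33.1), 13.9 CPM (13.1 to 14.8) and 8.26 CPM (7.46 to 9.12), which are log2 ratios of −1.18 and −1.93. The intervals of the 3 libraries did not overlap for either gene, and the order from untreated to 48 h was downwards.

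Clu (chr14:65968483-65981547) was a low transcript, with 425 UMIs or 8.53 CPM in untreated cells, 235 UMIs or 3.31 CPM at 24 h and 139 UMIs or 2.94 CPM at 48 h. Its log2 ratio was −1.37 (−1.60 to −1.13) and −1.54 (−1.82 to −1.26), with overlapping intervals of the 2 treated libraries. Il33 (chr19:29925114-29960718) showed the same order of untreated over treated cells, with 5.42, 1.55 and 1.67 CPM and log2 ratios of −1.81 (−2.14 to −1.48) and −1.70 (−2.08 to −1.33). Here too the treated libraries did not differ beyond their counting intervals. Ankrd1 (chr19:36111961-36120099) had 138, 66 and 16 UMIs, or 2.77, 0.929 and 0.339 CPM. Few cells carried it, since 1 cell held 63.8% of the untreated UMIs and 1 cell 72.7% of those at 24 h. Without the cell that held most Ankrd1 in each library, 50, 18 and 12 UMIs were left, with log2 ratios of −1.99 (−2.85 to −1.19) and −1.98 (−3.03 to −1.06). In all, 14, 9 and 11 cells had an Ankrd1 UMI. The intervals treat UMIs of the same cell as separate draws and are too narrow for this gene. To a lesser degree this holds for the other low genes, also in the comparisons of cells below. The top 5 cells held 21.9% of untreated Clu, 23.4% of untreated Msln and 31.8% of 24 h Il33 UMIs.

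A gene was counted as higher or lower when its log2 ratio reached 1 or −1. At 24 h 1 of the 7 genes (Ly6a) was higher, against 2.86% of the 12689 features, and 4 (Msln, Clu, Ankrd1 and Il33) were lower, against 16.1%. At 48 h 2 (Ly6a and Ly6e) were higher, against 3.89%, and the same 4 genes were lower, against 9.5%. Between 24 h and 48 h none of the 7 was higher, against 5.79%, and Ankrd1 was lower with a log2 ratio of −1.46, against 1.24%. Without the cell that held most Ankrd1 in each library that ratio was 0.0035 (−1.18 to 1.14), so the call rests on 1 cell. The median ratio over all features was itself below 0, at −0.33 for 24 h and −0.12 for 48 h, and both contrasts share the untreated library. Scaling by edgeR TMM factors instead of library totals shifts every log2 ratio by 0.45 at 24 h and 0.19 at 48 h. Under that scaling Ly6e was higher at 24 h with 1.36, Msln and Clu were at −0.73 and −0.92, and Anxa1 was at −0.17, so none of the 7 genes changed direction against untreated cells. Between 24 h and 48 h Ly6a (above) and Il33 (0.11 with library totals, −0.15 with TMM factors) did, and Msln passed a 2-fold difference with −1.01.

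Genes of the interferon response were higher in both treated libraries. All 28 listed IFN-γ response genes were higher at both times, with median log2 ratios of 7.89 and 8.03. Of all features 2.86% were higher at 24 h (median −0.33) and 3.89% at 48 h (median −0.12). The GTPase genes Iigp1 (1, 79816 and 52741 UMIs) and Gbp2 (2, 40550 and 30176 UMIs) had the largest ratios of the list, and the MHC class I genes H2-K1 (1.34 and 1.94) and H2-D1 (1.40 and 1.41) the smallest. Ly6a at 1.93 and 2.08 lay above both MHC class I genes at both times, and Ly6e lay below both.

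Of 20 listed fetal-like and repair genes, 18 had a mean of at least 1 CPM. At 24 h 1 of the 18 was higher and 6 were lower (median −0.46), and at 48 h 1 was higher and 4 were lower (median −0.55). Of all features 2.86% were higher and 16.1% lower at 24 h (median −0.33), and 3.89% and 9.5% at 48 h (median −0.12). The one that was higher was Areg, which encodes the growth factor amphiregulin, with 131, 341 and 393 CPM. The lowest were Emp1, an epithelial membrane protein gene, with 54.0, 8.57 and 7.60 CPM, and Il1rn, which encodes the interleukin-1 receptor antagonist, with 47.5, 7.39 and 7.62 CPM. Sprr1a, a cornified-envelope gene induced on injury, had 11.02, 16.9 and 8.64 CPM, so it did not keep one direction.

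Of 20 listed YAP targets, 15 had a mean of at least 1 CPM, and 1 was higher and 5 were lower at 24 h (median −0.82), 1 and 2 at 48 h (median −0.14). The 48 h values are close to those of all features, of which 9.5% were lower with a median of −0.12, against 16.1% and −0.33 at 24 h. Ccn2, which encodes connective tissue growth factor, had 10.0, 1.79 and 2.05 CPM, and Rbms3, an RNA-binding protein gene, had 9.98, 1.63 and 4.38 CPM. The kinase gene Nuak2 was the one that was higher, with 13.5, 27.6 and 33.1 CPM. Gadd45b, a stress-response gene, had log2 ratios of −0.17 and −0.46, and the phosphatase gene Ptpn14 −0.61 and 0.49. None of the 17 genes of the Hippo pathway itself reached a 2-fold difference at either time (medians −0.48 and −0.06). Yap1 had 47.7, 34.1 and 53.6 CPM, Wwtr1, which encodes the YAP paralog TAZ, 28.0, 20.6 and 31.0 CPM, and Tead1 125, 73.6 and 141 CPM. Tead4 had log2 ratios of 0.10 and 0.77, Tead2 −0.49 and −0.78 and Tead3 −0.95 and −0.44. The TEAD genes thus kept within a 2-fold difference, and Yap1, Wwtr1 and Tead1 were below the untreated level at 24 h and above it at 48 h, except that with TMM factors Wwtr1 was not below it at 24 h. The scaffold genes Sav1 (−0.16 and −0.15) and Amotl1 (−0.83 and −0.64) and the TEAD cofactor gene Vgll4 (−0.27 and 0.23) also stayed within a 2-fold difference. With TMM factors the number of lower YAP targets at 24 h was 2 instead of 5.

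**Figure D2:**
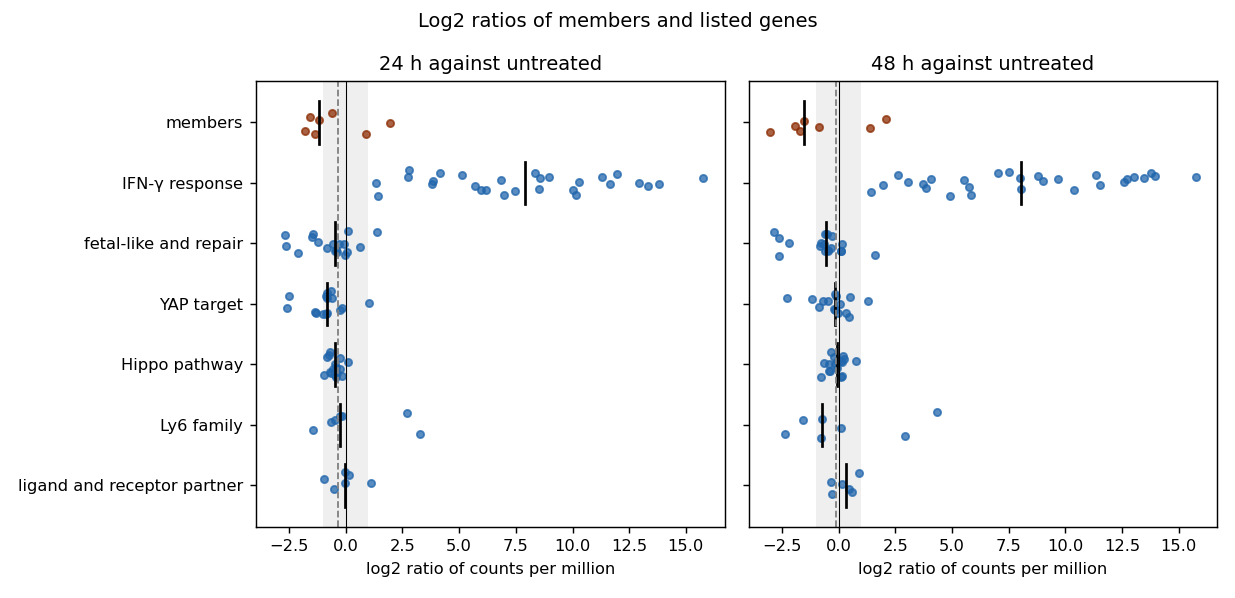
Log2 ratio of CPM at 24 h (left) and 48 h (right) against untreated for the 7 genes (brown) and 6 lists (blue, 1 point per gene with a mean of at least 1 CPM, black bars are medians). The grey band marks less than a 2-fold difference and the dashed line the median of all 12689 features. The IFN-γ response genes lie to the right of the band, whereas most fetal-like, YAP target and Hippo genes lie in it or to its left.

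Binding partners of the encoded proteins were present for some of the genes. The annexin A1 receptor genes Fpr1 and Fpr2 had 0 UMIs in all libraries and Fpr3 had 9, 17 and 10. So 2 of the 3 receptor genes were not seen at this depth, which allows up to 3 UMIs in each library. S100a11, which encodes a binding partner of annexin A1, had 586, 573 and 482 CPM, and Pla2g4a, the phospholipase that annexin A1 is known to inhibit, had 112, 110 and 153 CPM. Il1rl1, which encodes the receptor of interleukin-33, had 0 UMIs, its co-receptor gene Il1rap had 12.9, 6.71 and 10.3 CPM, and the adaptor gene Myd88 had 9.94, 21.2 and 14.8 CPM. Muc16, whose product binds mesothelin, had 25, 3 and 4 UMIs. The clusterin receptor genes Lrp8 (33.8, 37.8 and 62.5 CPM) and Vldlr (13.8, 9.68 and 15.6 CPM) were detected throughout. Of the 6 partners with a mean of at least 1 CPM, Myd88 at 24 h was the one past a 2-fold difference.

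Nearly all treated cells had a Ly6a UMI. When every cell was thinned to 5000 UMIs, a Ly6a UMI was present in 82.0% of cells without IFN-γ (79.6 to 84.3), in 99.9% after 24 h and in 99.97% after 48 h. The median number of Ly6a UMIs per thinned cell was 2, 15 and 16 in the 3 libraries, and the 10th percentile of the treated cells was 5 and 7. Of the treated cells 74.3% and 79.1% exceeded 9 UMIs, the untreated 90th percentile. For Ly6e the shares were 59.4% (56.3 to 62.3), 89.1% (86.9 to 91.0) and 92.8% (91.8 to 93.7), with median counts of 1, 2 and 3. Without thinning, 97.3%, 99.9% and 100% of cells had a Ly6a UMI and 89.98%, 98.8% and 97.6% a Ly6e UMI. No cluster of cells lacked Ly6a. The lowest untreated share over the clusters described below was that of the enteroendocrine-like cells, with 56.7% of 30 cells at a median depth of 11498.5 UMIs, and after 48 h all 21 cells of that cluster had it.

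Anxa1 and Msln were found in fewer treated than untreated cells. Anxa1 was found in 51.7% of cells without IFN-γ (48.6 to 54.8), in 42.6% after 24 h (39.4 to 45.9) and in 37.7% after 48 h (35.9 to 39.5). Msln was found in 10.8% (8.97 to 12.8), 4.80% (3.51 to 6.39) and 3.44% (2.81 to 4.17). Clu was found in 3.31% (2.31 to 4.57), 1.53% (0.837 to 2.55) and 1.19% (0.832 to 1.66), and Il33 in 1.32% (0.725 to 2.21), 0.327% (0.0675 to 0.953) and 0.545% (0.312 to 0.884). For Clu the intervals of untreated and 24 h cells overlapped, and for Il33 those of untreated cells and both treated libraries. Ankrd1 was found in 3, 2 and 4 thinned cells, too few to give a direction. Unthinned shares, which follow depth, were 86.6%, 87.9% and 61.7% for Anxa1, 32.0%, 27.5% and 8.42% for Msln, 16.8%, 13.8% and 3.41% for Clu, 12.6%, 7.63% and 2.11% for Il33, and 1.32%, 0.981% and 0.375% for Ankrd1.

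**Figure D3:**
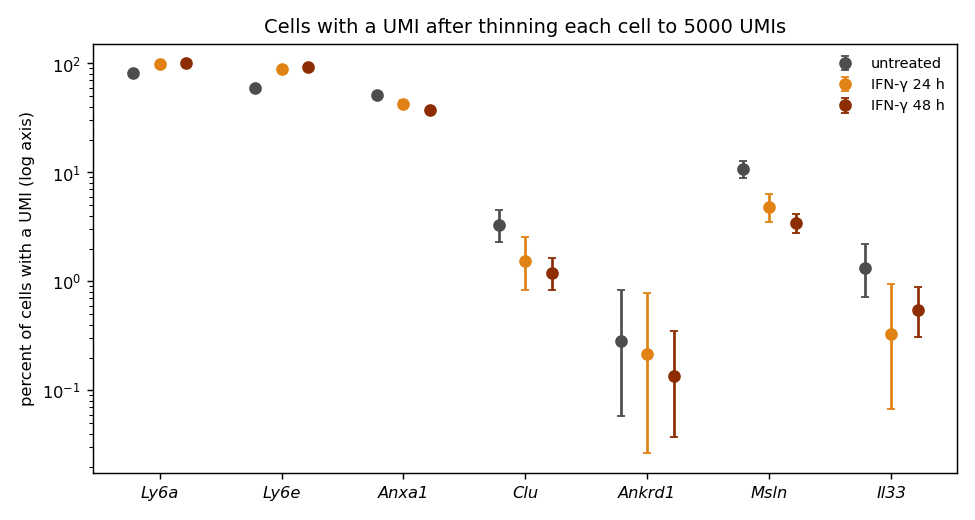
Percent of cells (log axis) with at least 1 UMI of each gene after thinning each cell to 5000 UMIs, in the untreated, IFN-γ 24 h and IFN-γ 48 h libraries, with exact 95% Clopper-Pearson intervals for counting error. Ly6a and Ly6e reach 99.97% and 92.8% of cells at 48 h, while Msln goes from 10.8% to 3.44%. The part of free RNA in these shares was not tested.

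Barcodes with fewer than 2000 UMIs carried the same genes. They had 1165, 3483 and 3930 CPM of Ly6a and 377, 574 and 737 CPM of Ly6e in the untreated, 24 h and 48 h libraries, no less than the cells did. For Clu they had 7.63, 3.42 and 1.80 CPM and for Il33 5.54, 1.83 and 1.57 CPM, against 8.53, 3.31 and 2.94 CPM and 5.42, 1.55 and 1.67 CPM in cells. Msln was lower in these barcodes than in cells, at 19.2, 8.52 and 3.02 CPM, and so was Anxa1, at 158, 108 and 63.5 CPM. The part of such free RNA in the shares of cells with a UMI was not tested. In goblet-like cluster 5, 2.70% and 1.35% of 74 untreated cells had a Clu and an Il33 UMI after thinning. These are too few cells to set against the 3.31% and 1.32% of all cells. The summed levels in that cluster, 1.66 CPM of Clu and 1.11 CPM of Il33, were below those of all untreated cells. With the part of free RNA unknown, no difference is read from the shares of Clu and Il33. The shares of Ly6a, Ly6e, Anxa1 and Msln carry the same limit and are given as measured. The Il33 and Ankrd1 shares also depend on the random draw. With a second draw those of Il33 were 2.46%, 0.545% and 0.784%, and those of Ankrd1 went from 0.284%, 0.218% and 0.136% to 0.0945%, 0.545% and 0.102%.

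Clustering without the 7 genes gave 10 clusters, which were joined across libraries by integration. Of these, 1 was proliferating-like (led by Nusap1, Ube2c and Plk1), 1 colonocyte-like (Krt20, Car1 and Slc26a3), 2 goblet-like (one led by Spink4, Muc2 and Sval1, the other by Kcnma1, Slc12a8 and Hepacam2) and 1 enteroendocrine-like (Chgb, Chga and Ptprn2). The other 5 stayed unnamed and are given by their leading genes, Lrrc4, AY036118 and Angpt2 in cluster 0, Ung, Hist1h1a and Ccne2 in cluster 2, Slc2a13, Pde3a and St3gal4 in cluster 6, Selenbp1, 2610528A11Rik and Myl7 in cluster 7, and Gm26917, Peak1 and Il31ra in cluster 9. Only clusters with at least 20 cells of a library are used here.

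Ly6a was higher in all 7 clusters that could be compared at 24 h, with log2 ratios of 1.57 to 2.82, and in all 8 at 48 h, with 1.85 to 3.90. Ly6e was likewise higher in all 7 (0.29 to 1.42) and all 8 (0.67 to 2.05). Before treatment the level of Ly6a in the clusters ran from 191 CPM in enteroendocrine-like to 1139 CPM in colonocyte-like cells, a log2 distance of 2.57. After 24 h it ran from 1078 CPM in cluster 9 to 4669 CPM in goblet-like cluster 5, a distance of 2.11. After 48 h it ran from 2430 CPM in goblet-like cluster 4 to 5299 CPM in colonocyte-like cells, a distance of 1.12. The same distance for Ly6e was 1.81 before treatment, 1.15 at 24 h and 0.58 at 48 h. The untreated, 24 h and 48 h libraries had 8, 9 and 9 such clusters, which were not all the same. Cluster 9, the lowest for both genes at 24 h, had 26 cells there at a median depth of 6614.5 UMIs. In the other libraries it had too few cells to be used. The next lowest Ly6a level at 24 h was 1792 CPM in cluster 6, so the 24 h distance depends on cluster 9. In goblet-like cluster 5 Ly6e was already at 511 CPM in untreated cells and had 623 CPM at 24 h, the smallest ratio of the 7. In colonocyte-like cells it went from 199.9 CPM to 535 and 828 CPM. The low-UMI barcodes described above held 3483 and 3930 CPM of Ly6a at 24 h and 48 h, and 574 and 737 CPM of Ly6e. For both genes and at both times the lowest cluster lay below these levels and the highest above them. The part of free RNA in the cluster levels, in their ratios and in the distances between clusters was not tested.

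Anxa1 was lower in all 7 clusters at 24 h (−0.78 to −0.29) and in all 8 at 48 h (−1.30 to −0.35). The share of all features that were lower was not computed by cluster. Over whole libraries the median of all features was −0.33 and −0.12. Anxa1 had its highest level in the colonocyte-like cluster of every library, with 332, 272 and 260 CPM. Msln did so as well, with 79.5, 40.5 and 26.6 CPM, against 5.35, 0 and 1.81 CPM in goblet-like cluster 5. At a clustering resolution of 1 the same cluster held the untreated maximum of every gene except Ly6e. It had 1669 CPM of Ly6a, 508 CPM of Anxa1 and 128 CPM of Msln, and its cell identity was not examined. Anxa1 and Msln stayed highest there at 24 h and 48 h, whereas Ly6a was highest in other clusters. In thinned cells 21.3% of untreated colonocyte-like cells and 0% of 74 goblet-like cells of cluster 5 had an Msln UMI, at median depths of 52189 and 62159 UMIs. In clusters with at least 20 UMIs over the 2 libraries, Msln was lower in 5 of 5 at 24 h and 6 of 6 at 48 h, and Clu and Il33 were each lower in 4 of 4 at both times. Ankrd1 could be followed in 2 clusters, where its ratio at 24 h was 0.22 (−0.39 to 0.84) in colonocyte-like and −6.49 in proliferating-like cells. The colonocyte-like cluster held the cell with 48 of its 66 UMIs at 24 h. The proliferating-like cluster held the cell with most of its untreated UMIs.

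**Figure D4:**
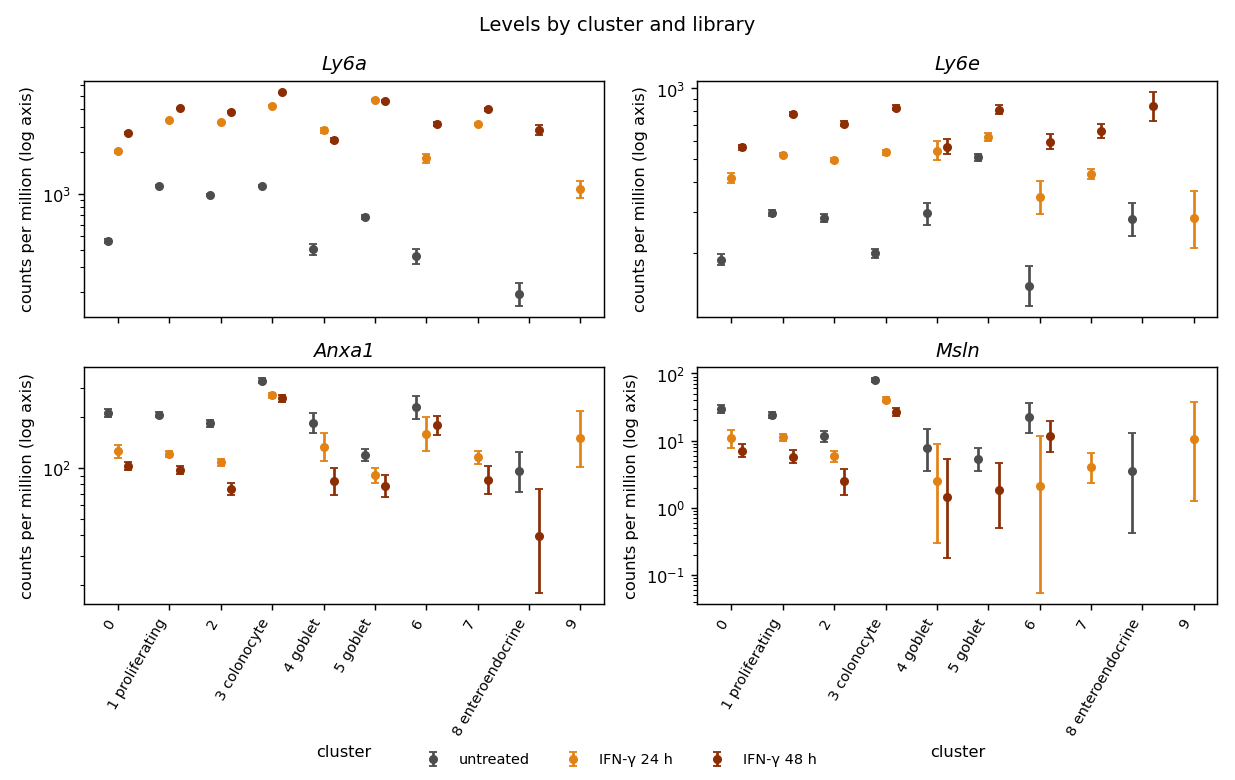
CPM (log axis) of Ly6a, Ly6e, Anxa1 and Msln by cluster (0 to 9, with names where markers gave one) in the untreated, IFN-γ 24 h and IFN-γ 48 h libraries, with 95% counting intervals; clusters with fewer than 20 cells of a library or without a UMI of the gene are not drawn. Treated points lie above untreated ones for Ly6a and Ly6e and below them for Anxa1 in each cluster with both. The part of free RNA in these levels was not tested.

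Within each library the other genes were compared between cells with more and with less Ly6a and Ly6e. Cells were ordered by their summed Ly6a and Ly6e UMIs after thinning, and cells above the upper tertile (Ly6-high) were set against cells at or below the lower tertile (Ly6-low), with levels taken from the UMIs that thinning had left out. The groups held 312 and 410 cells in the untreated library, 281 and 331 at 24 h, and 946 and 1052 at 48 h. In untreated cells Anxa1 was at 296 CPM in Ly6-high and 162 CPM in Ly6-low cells, a log2 ratio of 0.87 (0.79 to 0.94). Msln was at 56.4 and 12.4 CPM (2.19, interval 1.94 to 2.44), Clu at 15.4 and 3.54 CPM (2.12, interval 1.66 to 2.62) and Il33 at 9.27 and 2.01 CPM (2.20, interval 1.59 to 2.87). Ankrd1 had 130 against 2 UMIs, most of them from 1 cell. All 5 genes thus were higher in the Ly6-high cells of the untreated organoids.

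The same direction was found after treatment, with smaller ratios for most genes. The Ly6-high and Ly6-low groups also lay closer together in Ly6a and Ly6e themselves once IFN-γ was given. Their log2 ratio for Ly6a fell from 2.39 without IFN-γ to 0.82 (24 h) and 1.02 (48 h). For Ly6e it fell from 1.29 to 0.49 and 0.73. The part of this narrower contrast in the smaller ratios of the other genes was not tested. Among the other genes, the ratio at 24 h was 0.48 (0.40 to 0.56) for Anxa1, 1.503 (1.20 to 1.82) for Msln, 0.71 (0.13 to 1.31) for Clu and 1.04 (0.17 to 2.01) for Il33. At 48 h it was 0.80 (0.65 to 0.95) for Anxa1 and 0.93 (0.36 to 1.54) for Msln, whereas the intervals of Clu (0.74, −0.11 to 1.69) and Il33 (0.35, −0.75 to 1.60) held 0. Ly6-high cells at 24 h had less Anxa1, with 177 CPM, than Ly6-high untreated cells, with 296 CPM, and at 48 h they had 144 CPM. Treated Ly6-low cells nevertheless held more Ly6a, with 2467 and 2432 CPM, than untreated Ly6-high cells, with 1559 CPM.

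Both the fetal-like and repair list and the IFN-γ response list were compared between the same groups of cells. Of the 18 fetal-like and repair genes, 16 were higher in Ly6-high cells of the untreated library (median 0.81), 16 at 24 h (0.77) and 14 at 48 h (0.83), while the share of all features that were higher was 35.4%, 31.9% and 34.3% (medians −0.19, −0.25 and −0.24). Of the IFN-γ response genes with at least 20 UMIs, 8 of 14 were higher in untreated cells (median 0.07), 21 of 28 at 24 h (0.24) and 22 of 28 at 48 h (0.27). YAP targets were higher in 9 of 15, 4 of 15 and 3 of 15 cases (medians 0.30, −0.53 and −0.53), and Hippo pathway genes in 4, 1 and 1 of 17. Ly6c1 went with the order in each library, at 308 against 37.7 CPM, 1416 against 744 CPM and 1713 against 708 CPM.

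Depth and cell identity moved with the order as well. Median depth was 58392 UMIs in Ly6-high and 20305 in Ly6-low untreated cells, 78286 and 17205 at 24 h, and 18806 and 7422 at 48 h, and the median mitochondrial share was 3.18% and 7.40%, 1.83% and 5.53%, and 3.31% and 9.44%. Goblet markers were higher in Ly6-high cells (9 of 9, 9 of 9 and 6 of 8 genes), and stem markers were mostly lower (higher in 2 of 12, 0 of 12 and 2 of 12). Colonocyte markers were higher in 1 of 12 before treatment, in 10 of 11 at 24 h and in 9 of 9 at 48 h. Among cells at or above the median depth of their library, where the groups were closer in depth, the median ratio of the 5 other genes was 2.64, 0.87 and 0.94, and that of the fetal-like and repair list 0.63, 0.72 and 0.72. Without the goblet-like and enteroendocrine-like clusters these medians were 2.30, 1.15 and 0.81, and 0.83, 0.81 and 0.82. That setting kept the colonocyte-like cluster, and the median ratio of colonocyte markers in it was −1.30, 2.65 and 2.41. It therefore does not make the groups alike in cell identity. Ordered by Ly6a alone, the median of the 5 genes was 2.61, 1.15 and 0.73 (4 genes with at least 20 UMIs at 48 h, as in every order used here). Ordered by Ly6e alone, it was 0.18 (4 genes), 0.11 and 0.24, and that of the fetal-like and repair list −0.10, 0.20 and 0.14. In that order Msln was lower in the upper group of untreated cells (−0.24, interval −0.43 to −0.05). The intervals held 0 for Anxa1 in untreated cells, for Anxa1, Clu and Il33 at 24 h and for Clu, Msln and Il33 at 48 h. They lay above 0 for Il33 (0.98, 0.55 to 1.42) and Clu (0.38, 0.0070 to 0.75) in untreated cells. The same held for Msln at 24 h (0.52, 0.27 to 0.77) and Anxa1 at 48 h (0.26, 0.14 to 0.37). Most of these ratios were thus smaller without Ly6a in the order. Ly6e alone gave coarse cuts, at 0 and 1 thinned UMIs in untreated cells, and the part of this in the smaller ratios was not tested. With quartiles in place of tertiles Il33 at 48 h was at −0.23 (−1.46 to 1.15). Inside single clusters with at least 60 cells of a library, Anxa1 was higher in Ly6-high cells in 4 of 5 clusters before treatment, 4 of 4 at 24 h and 5 of 7 at 48 h. The 2 clusters without it at 48 h were the colonocyte-like one (−0.022), where Anxa1 was highest, and cluster 2 (−0.19). The median of the fetal-like and repair list was above 0 in 5 of 5, 4 of 4 and 5 of 7. That of the IFN-γ response list was above 0 in 2 of 5, 4 of 4 and 7 of 7, and above the median of all features in 3 of 5, 4 of 4 and 7 of 7.

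**Figure D5:**
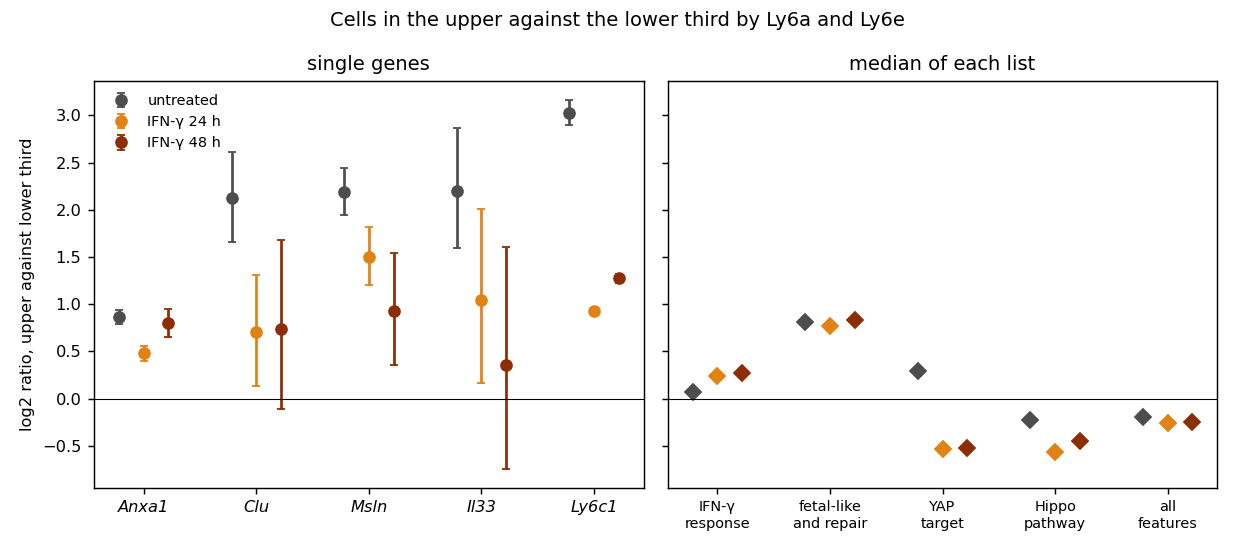
Log2 ratio of CPM between cells above the upper and at or below the lower tertile of summed Ly6a and Ly6e, in the untreated, IFN-γ 24 h and IFN-γ 48 h libraries, for 4 of the 7 genes and Ly6c1 with 95% counting intervals (left) and as the median of each list (right). Anxa1, Clu, Msln and Il33 lie above 0 in all 3 libraries, with intervals that reach below 0 for Clu and Il33 at 48 h.

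Over the 26 sums of a cluster in a library, the genes most like each member were found by Pearson correlation of log2(CPM + 1). The sums share libraries and treatment, so the values are descriptive. For Ly6a they were Ly6c1 (0.97), Psmg4 (0.96), Psmb10 (0.95), Psme2 (0.95) and Bst2 (0.95), which include proteasome genes and the interferon-stimulated gene Bst2. For Ly6e they were Plaat3 (0.91), Ifitm3 (0.89), Ifnar2 (0.88), AW112010 (0.88) and Idnk (0.88). Anxa1 was most like Emp1 (0.92), Msln (0.87), Krt19 (0.86), Aktip (0.85) and Anxa3 (0.85), and Msln most like Anxa1 (0.87), Anxa3 (0.86), Ahnak (0.85), Emp1 (0.84) and Slc10a2 (0.82). Il33 was most like Anxa3 (0.84), Cytip (0.83), Krt4 (0.82), Hpgd (0.82) and Msln (0.80). Clu stood by itself with Tgm1 (0.77), Saysd1 (0.77), Clmp (0.75), Inka2 (0.75) and Rap2b (0.73). Anxa1 and Msln were thus each among the genes most like the other, and Anxa3 was among those of Anxa1, Msln and Il33, whereas none of the 5 genes was listed for Ly6a or Ly6e. The correlation was 0.82 for Ly6a with Ly6e, −0.32 for Ly6a with Anxa1 and −0.61 for Ly6e with Anxa1. These lists and signs mix untreated and treated sums, between which Ly6a and Ly6e were higher and Anxa1 lower. They therefore do not show which genes cells of 1 library held together. Within libraries, in the order by summed Ly6a and Ly6e, Anxa1 was higher in Ly6-high cells (0.87, 0.48 and 0.80).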

How the data were processed

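Organoid cells were profiled with 10x Genomics 3′ v3 chemistry. The authors mapped to mm10 with Cell Ranger (6.0.1 in the submitters' processing notes) and deposited raw UMI counts per gene and barcode, background barcodes included. The annotation release and strand setting are not given in the sources used here. The limits on UMIs (5000), genes (400) and mitochondrial share (15%) follow the study's methods, and doublets were not removed. Library totals were 49801935, 71077817 and 47243500 UMIs.

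Counts were summed per library as CPM with exact Poisson intervals. Log2 ratios have exact conditional binomial intervals, with a floor of 3 counts where a library had 0, and shares have Clopper-Pearson intervals. No test was run, with 1 library per condition. Clusters came from CCA integration in Seurat 5.3.0 (R 4.3.3) with 2000 variable genes, 20 principal components and resolution 0.5, and were named from at least 3 raised markers of a list with 1 or more among the 10 leading genes. Python 3.11.15, numpy 2.4.6, pandas 2.3.3, scipy 1.17.1 and edgeR 4.0.16 (TMM factors) were used, and the code was tested on simulated data.

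The 7 genes, the lists and the tests were chosen with earlier results of these data known. The text names the 7 genes, the 2 highest and 2 lowest genes of each list at each time, partners, Yap1, Wwtr1 and TEAD genes, defining markers, the 5 genes most like a member that reached 5 CPM in a library, and the 3 leading genes of a cluster, except for items that are not reported here. Coordinates are from GENCODE vM21 (GRCm38), and the RefSeq promoter table (GRCm38.p6) matched 3 of the 7 genes. Alternatives were TMM scaling, means over cells, other limits on cells and features, the top 5% of cells by UMIs left out, other thresholds, no thinning, other orders of cells and other cluster resolutions.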

Additional observations from a re-analysis of the deposited data

Results flagged for a closer look

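Barcodes with fewer than 2000 UMIs, which enter no comparison of cells, held more Ly6a and Ly6e in the treated libraries than in the untreated one. The log2 ratio against untreated was 1.58 at 24 h and 1.75 at 48 h for Ly6a, and 0.61 and 0.97 for Ly6e. The ratios in cells were 1.93 and 2.08, and 0.91 and 1.37. Whether these barcodes are empty droplets or damaged cells was not tested.

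Some genes of the lists had log2 ratios of opposite sign at 24 h and 48 h, with counting intervals that did not reach 0. The difference between the times was not tested. Among them Yap1 had −0.48 and 0.17, its paralog gene Wwtr1 −0.44 and 0.15, Tead1 −0.76 and 0.18, and the TEAD cofactor gene Vgll4 −0.27 and 0.23. The YAP target Ptpn14 had −0.61 and 0.49, and the clusterin receptor gene Vldlr −0.51 and 0.17. Sprr1a went the other way, with 0.62 and −0.35. The 24 h library was the deepest, with a median of 68784 UMIs per cell, and the median of all features at 24 h was −0.33. TMM factors raise every 24 h ratio by 0.45, so on that scaling the 24 h values other than that of Sprr1a lie closer to 0, and those of Wwtr1 and Vgll4 at or above it.

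The median ratio of the YAP target list between Ly6-high and Ly6-low cells was 0.30 in the untreated library and −0.53 at both 24 h (−0.532) and 48 h (−0.526). The difference between libraries was not tested. The medians of all features in the same comparison were −0.19, −0.25 and −0.24. Among cells at or above the median depth of their library the list was at 0.34, −0.25 and −0.27, and all features at −0.14, −0.16 and −0.17. With tertiles taken inside single clusters, the median over clusters was 0.40, −0.22 and −0.20 for the list. For all features it was −0.0082, −0.13 and −0.072. The distance from all features in treated cells was thus smaller in both settings.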

How the results depend on the processing

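The direction of the ratio against untreated cells was the same for Ly6a, Ly6e, Anxa1, Clu, Msln and Il33 at both times under all 6 alternatives of scaling, averaging and cell limits. Over them Ly6a ranged from 1.87 to 2.38 at 24 h and from 2.03 to 2.28 at 48 h, Ly6e from 0.86 to 1.36 and 1.32 to 1.55, Anxa1 from −0.63 to −0.17 and −0.98 to −0.70, Msln from −1.21 to −0.73 and −2.07 to −1.75, Clu from −1.43 to −0.92 and −1.67 to −1.35, and Il33 from −2.11 to −1.36 and −1.87 to −1.50. Ankrd1 at 24 h, −1.58 from sums, was 0.081 as a mean over cells of CPM. Between 24 h and 48 h Ly6a was at −0.12 and Il33 at −0.15 with TMM factors, and Ankrd1 at 0.0035 without its top cell in each library.

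Over all features, 363 were higher and 2038 lower at 24 h, against 822 and 1028 with TMM factors and 602 and 4526 with at least 10 counts as the only limit. At 48 h 493 were higher and 1205 lower, against 914 and 2876 with that limit, and 1819 lower with means over cells. At 24 h the 7 genes had 2 higher with TMM factors, with means over cells or at a threshold of 0.5, and 2 lower with TMM factors. At a threshold of 2 they had 0 higher and 0 lower at 24 h and 1 and 1 at 48 h. Fetal-like and repair genes had 2 higher at 24 h with TMM factors, a minimum of 10000 UMIs or a threshold of 0.5, 2 higher at 48 h with 10000 UMIs, and 10 lower at 48 h at 0.5. At a threshold of 2 they had 0 higher and 3 lower at 24 h and 0 higher at 48 h. YAP targets had 0 higher at 24 h without the top 5% of cells, and 2 lower at 24 h with TMM factors, 3 with means over cells and 12 at 0.5, and 4 lower at 48 h at 0.5, where 38.9% (24 h) and 23.2% (48 h) of all features were lower. At a threshold of 2 they had 0 higher and 2 lower at 24 h and 0 and 1 at 48 h.

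In the order of cells, Ly6e alone gave medians of 0.18 (untreated) and 0.11 (24 h) for the other 5 genes, −0.050 for the untreated IFN-γ response, −0.10 (untreated) and 0.14 (48 h) for fetal-like and repair genes, and −0.072 (untreated) and 0.027 (24 h) for YAP targets. Quartiles in place of tertiles gave 1.95 for the 5 genes at 24 h. Ordering inside clusters, chosen after seeing the data as were the limit to deeper cells and the removal of the top cell of a gene, gave −0.059 for the untreated IFN-γ response and 0.19 for fetal-like and repair genes at 48 h. A median counted as moved when it shifted by over 1.5-fold. The cause of these shifts was not tested. No paired analysis was possible because each condition has 1 library, and for the same reason no library could be left out. Depth limits Clu, Il33 and Ankrd1, which had 139, 79 and 16 UMIs at 48 h.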
